A study of Mus musculus with 2 samples.

Results

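The genes described here encode the factors that start and extend protein chains on the ribosome, with their closest regulators. They are the protein-coding genes whose symbols begin with Eif1 to Eif6 or with Eef1 or Eef2. Of 55450 named genes, 79 symbols matched. Of these, 11 had no protein-coding transcript (10 processed pseudogenes and 1 long non-coding RNA), and the Y-linked Eif2s3y was left out by the rule, which left 67 members among 21951 protein-coding genes. There were 54 genes with an Eif symbol and 13 with an Eef symbol, regulators included, and each was placed in 1 of 11 roles.

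Total RNA was sequenced from the left cerebral cortex of 2 male mice aged 10 days, with 300 ng of RNA and a set of ERCC spike-ins (synthetic RNAs added in known relative amounts) per library. The strain was B6CASTF1/J, the hybrid of C57BL/6J and CAST/EiJ, and the labels name no engineered allele or treatment. The libraries, called replicate 1 and replicate 2, form 1 group. Per the labels they are biological replicates from separately numbered animals, under a shared donor identifier. With n = 2 and no second group, nothing was tested. Errors are the SD of these libraries alone.

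Initiation begins when eIF2, carrying GTP and the initiator tRNA, joins the small ribosomal subunit together with eIF1, eIF1A, eIF3 and eIF5. The cap-binding eIF4E, the scaffold eIF4G and the helicase eIF4A bring this complex to the capped end of an mRNA, and it scans to the start codon. In elongation eEF1A brings each aminoacyl-tRNA to the ribosome, the eEF1B subunits recharge eEF1A with GTP, and eEF2 moves the ribosome along by a codon. In the brain the eIF2 kinases, the eIF4E-binding proteins and the eEF2 kinase are known as switches of protein synthesis at synapses and under stress, and eEF1A2 is known as the form that mature neurons and muscle use.

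Replicate 1 held 31254528 expected counts and replicate 2 held 30218308, of which the members took 0.889% and 0.897%. Per gene with at least 20 counts, the chi-square statistic between the libraries was 4.50 over the members and 5.06 over all genes, so their counts differed by more than counting noise alone, which preparation and PCR copies can also give. They were treated as separate samples because the labels number them as biological replicates. The tissue label was met by its markers: the 6 glutamatergic neuron markers had a median of 270.6 TPM (a level corrected for transcript length and scaled to a fixed sum per library) in replicate 1 and 270.9 TPM in replicate 2. Markers of other cells were not even. The summed level of 5 choroid plexus markers was 9.36 and 313 TPM, that of 4 striatal markers 106 and 68.8 TPM, that of 5 erythroid markers 1213 and 836 TPM, that of 4 oligodendrocyte markers 280 and 240 TPM and that of 4 astrocyte markers 280 and 303 TPM, in replicates 1 and 2. The astrocyte markers did not move together: Slc1a3 (142 and 153 TPM) and Gfap (50.8 and 66.1 TPM) were higher in replicate 2. Aqp4 (60.1 and 58.6 TPM) and Aldh1l1 (26.8 and 25.1 TPM) were lower there. The part of all these other cells in the members' values was not tested. In tissue RNA, fewer cells of a type and less RNA per cell cannot be told apart.

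A pair of eEF1A genes and a pair of eIF4A genes carry much of what follows, and a stretch of each shows on what their separation rests. Each stretch covers 90 bases of the coding sequence of the leading coding transcript in GENCODE M21, around the longest run of bases that the pair shares, and capitals mark the positions at which the pair differs, 13 in the eEF1A stretch and 15 in the eIF4A stretch. Both Eef1a stretches run from coding base 271 to 360, the Eif4a1 stretch from 173 to 262 and the Eif4a2 stretch from 179 to 268.
Eef1a1: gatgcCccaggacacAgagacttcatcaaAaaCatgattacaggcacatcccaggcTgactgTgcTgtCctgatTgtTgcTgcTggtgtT
Eef1a2: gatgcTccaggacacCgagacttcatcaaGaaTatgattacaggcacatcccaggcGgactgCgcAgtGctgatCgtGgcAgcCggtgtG
Eif4a1: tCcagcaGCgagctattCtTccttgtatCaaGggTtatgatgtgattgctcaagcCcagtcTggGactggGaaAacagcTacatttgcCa
Eif4a2: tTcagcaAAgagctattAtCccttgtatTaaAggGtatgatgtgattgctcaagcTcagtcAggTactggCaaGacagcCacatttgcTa

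Over the whole coding sequence Eef1a1 and Eef1a2 were identical at 80.1% of 1389 aligned bases, with a longest shared run of 23 bases. Eif4a1 and Eif4a2 were identical at 78.1% of 1221 aligned bases, with a longest shared run of 20 bases. Neither pair shared any stretch of 100 bases, so any stretch of that length belongs to 1 member of a pair only. Processed pseudogenes are another matter. Of the 1675 windows of 100 bases in the leading coding transcript of Eif4a1, 60.8% also occurred in a transcript of another gene, mostly in the processed pseudogene Eif4a-ps4, which was listed at 44.4 and 41.6 TPM with 1018 and 917 expected counts. For Eef1a1 the share was 26.7%, spread over 10 other genes, of which Gm13456 shared the most windows (14.9 and 14.8 TPM), and for Eef1a2 it was 0. Among all 67 members, 43 shared no such window with another gene, 13 shared over 10% and 3 shared over 50%. The 3 were Eif4a1, Eif3j2 (83.99%, with Eif3j1) and Eif4ebp3 (62.8%, with AC115631.1), and their levels depend on how the authors' programs divided such reads. Shared windows were not counted over all protein-coding genes, so whether these counts are particular to the members was not tested.

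Nearly all members were expressed. At least 1 TPM was reached in both libraries by 65 of 67 members (97.0%), against 59.7% of all protein-coding genes. The median member stood at 39.4 ± 0.88 TPM (SD, n = 2), the median protein-coding gene at 4.00 ± 0.15 TPM and the median detected protein-coding gene at 16.3 ± 0.46 TPM. The members below 1 TPM were Eif4e1b, an eIF4E relative known from oocytes, at 0.08 and 0.06 TPM, and the methyltransferase gene Eef1akmt3 at 0.13 and 0.06 TPM. The level was unevenly held: Eef1a1, Eef2, Eif4g2 and Eef1a2 together made up 45.4% ± 0.64 of the members' summed TPM, and Eef1a1 alone 25.5% ± 0.13. The 13 genes with an Eef symbol held 45.8% ± 0.67 of that sum. These include the kinase gene Eef2k, 5 methyltransferase genes and Eef1e1, which are not elongation factors themselves.

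**Figure D1:**
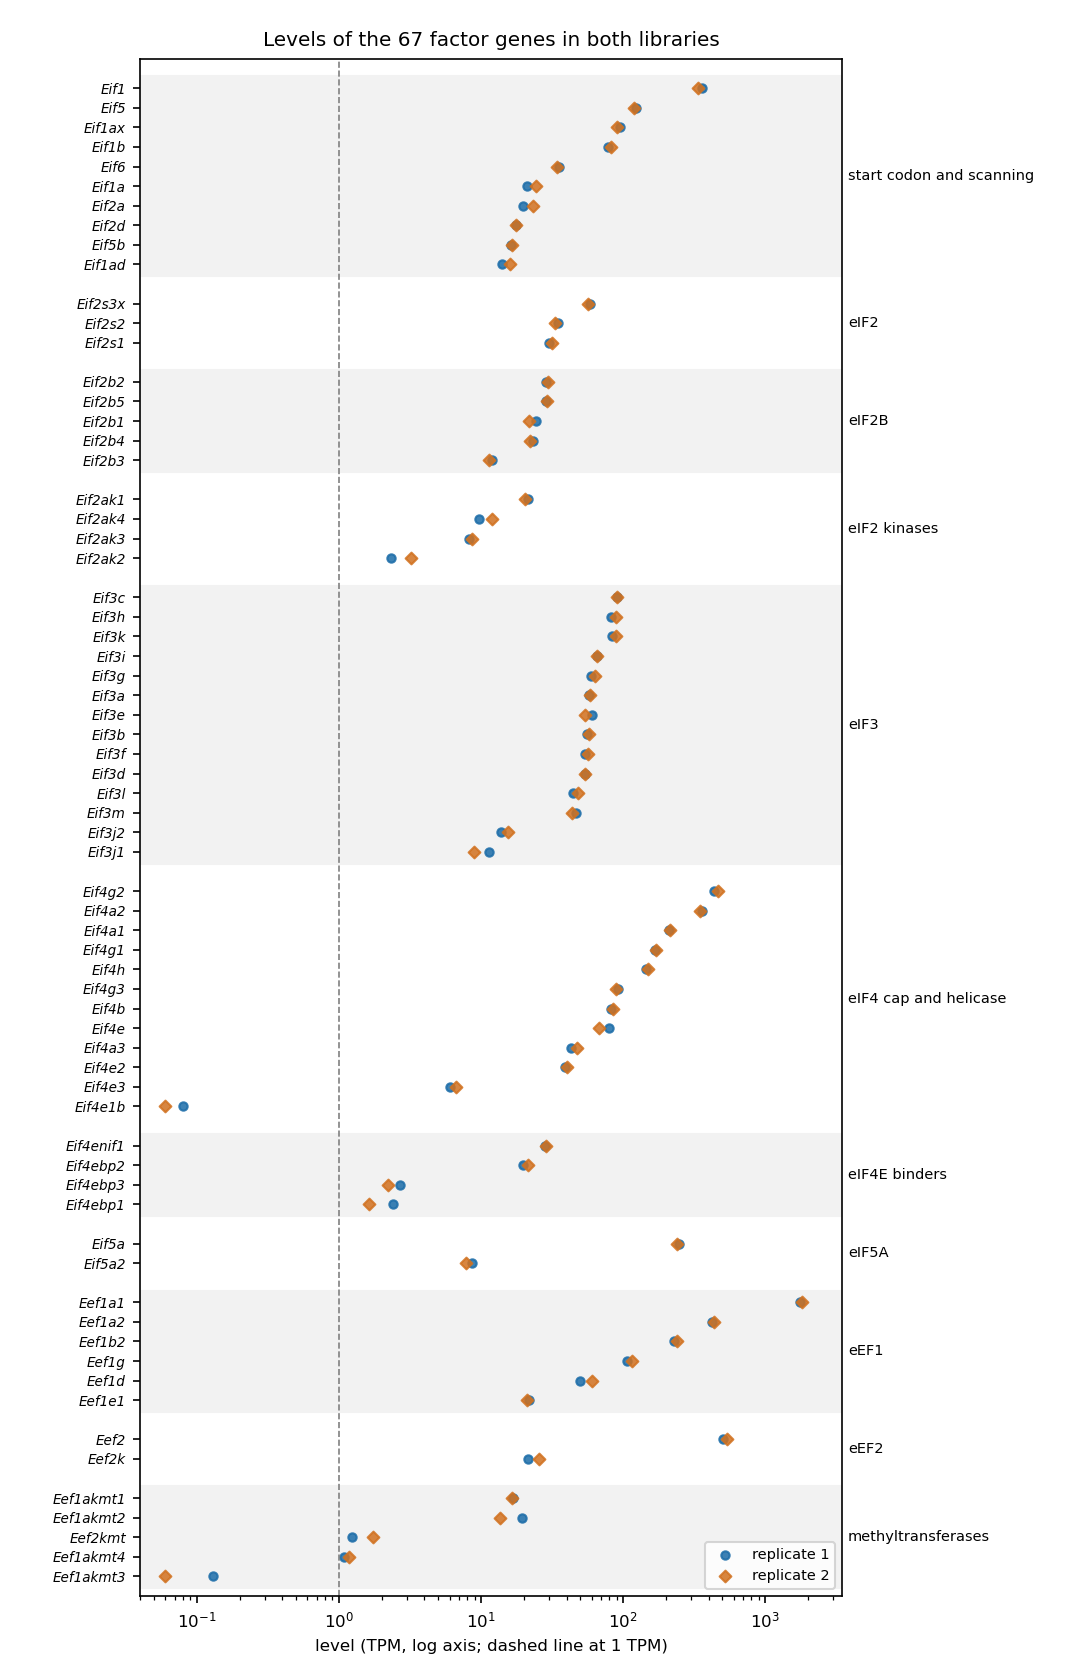
Level of each of the 67 members in TPM (log axis) in replicate 1 (circles) and replicate 2 (diamonds), grouped by role and ordered by mean level within a role, with a dashed line at 1 TPM. Eef1a1 stands alone at 1772 and 1821 TPM, the core eIF3 subunits lie close together, and Eif4e1b and Eef1akmt3 are the 2 members left of the line.

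Eef1a1 (ENSMUSG00000037742.14, chr9:78478449-78489151 in mm10), the form of eEF1A made by most cells, was the most abundant member at 1772 and 1821 TPM. Eef1a2 (ENSMUSG00000016349.10, chr2:181147653-181157014) stood at 422 and 439 TPM. Eef1a1 was thus 4.20 and 4.15 times as abundant as Eef1a2 (4.17 ± 0.031, SD, n = 2) and held 80.7% ± 0.12 of the pair's level. The authors deposited a second quantification, built with a transcript index and summed here by gene. There the ratio was 4.87 ± 0.049. Eef1a1 led in both libraries and in both quantifications, and the ratios differ between the quantifications by more than the spread between the libraries. Nearly all of the Eef1a1 level came from protein-coding transcripts, with 2.66% ± 0.014 in others, and Eef1a2 has no other kind.

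The eEF1B subunits exchange GDP for GTP on eEF1A. Eef1b2 (ENSMUSG00000025967.16, chr1:63176825-63180486), a catalytic subunit, was listed at 227 and 241 TPM. Eef1g, the gamma subunit, stood at 106 and 116 TPM and Eef1d, the other exchange subunit, at 49.9 and 60.7 TPM. The subunits therefore fell in the order Eef1b2, Eef1g, Eef1d, with no overlap between the libraries' ranges, and all were below both eEF1A genes. Of the Eef1g windows 49.4% also lay in other genes, mostly the pseudogene Gm4366 (2.66 and 4.48 TPM). Eef1e1, which despite its name encodes a member of the multi-tRNA synthetase complex, was the lowest of this role at 21.9 and 21.2 TPM.

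Eef2 (ENSMUSG00000034994.10, chr10:81176631-81182498), the translocase, was listed at 502 and 536 TPM. The eEF1A genes together reached 4.29 ± 0.11 times the level of Eef2. Its kinase Eef2k, which is activated by calcium and calmodulin and blocks eEF2, stood at 21.4 and 25.5 TPM, so that Eef2 was 22.2 ± 1.73 times as abundant as its kinase. The methyltransferases that modify eEF1A and eEF2 were low. Eef1akmt1 was at 16.7 and 16.5 TPM and Eef1akmt2 at 19.4 and 13.6 TPM, while Eef1akmt4 (1.08 and 1.17 TPM) and Eef2kmt (1.23 and 1.73 TPM) were just above the detection limit. Of the Eef1akmt4 windows, 38.5% also lie in Gm49333.

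Eif5a (ENSMUSG00000078812.10, chr11:69916714-69921958), whose protein carries the hypusine modification and helps the ribosome over difficult stretches, reached 249 and 241 TPM. Its paralog Eif5a2 was at 8.66 and 7.84 TPM, and Eif5a held 96.7% ± 0.15 of the pair's level, in the second quantification also 96.7% ± 0.21. This was the most one-sided of the 10 paralog families compared.

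Factors of scanning and start codon choice spanned a wide range. Eif1 (ENSMUSG00000035530.13, chr11:100319885-100322096), which guards the fidelity of start codon choice, was the highest at 361 and 338 TPM, and its paralog Eif1b stood at 78.1 and 82.5 TPM. Eif1 held 81.3% ± 1.30 of that pair, but 66.6% ± 1.18 when protein-coding transcripts alone were summed. Of the eIF1A pair the X-linked Eif1ax (95.1 and 89.95 TPM) was above Eif1a (21.2 and 24.3 TPM). Eif5, the GTPase-activating protein of eIF2, was at 124 and 120 TPM. Eif6, which keeps the large subunit from joining early, was at 35.5 and 34.0 TPM, and Eif5b, the GTPase of subunit joining, at 16.2 and 16.6 TPM. Eif2a and Eif2d, which can deliver tRNA outside the eIF2 route, stood at 19.8 and 23.4 TPM and at 17.7 and 17.5 TPM. The lowest member of this role was Eif1ad, at 14.0 and 16.02 TPM.

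Among the 3 member genes of eIF2, the highest was 1.87 ± 0.099 times the lowest (SD, n = 2). It was 3.22 ± 0.16 times in the second quantification and 3.23 ± 0.22 times over protein-coding transcripts alone. These ratios leave out the Y-linked gamma gene, so they do not compare the whole gamma level with the other subunits. Eif2s1, the alpha subunit on which stress kinases act, was at 29.9 and 31.4 TPM, and Eif2s2, the beta subunit, at 35.1 and 33.2 TPM. The gamma subunit is encoded by the X-linked Eif2s3x, at 58.2 and 56.6 TPM, and by its Y-linked copy, which is not a member and stood at 39.2 and 41.1 TPM in these males. Eif2s3x held 58.9% ± 1.31 of the gamma level, and both genes together came to 97.5 ± 0.20 TPM. The Eif2s3x share was 53.1% ± 2.38 in the second quantification and 68.6% ± 0.52 over protein-coding transcripts alone. Of the Eif2s3x windows 35.3% also lay in the pseudogene Gm2223, at 4.36 and 4.28 TPM.

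The exchange factor eIF2B recharges eIF2 with GTP, and its mutated genes are known from a leukodystrophy. Its catalytic subunit gene Eif2b5 stood at 28.6 and 29.4 TPM and Eif2b2 at 28.8 and 29.5 TPM, with overlapping ranges. Eif2b1 (24.3 and 21.7 TPM) and Eif2b4 (23.2 and 22.3 TPM) also overlapped each other and lay below that first pair. Eif2b3 was the lowest at 11.9 and 11.5 TPM, and the highest subunit was 2.50 ± 0.11 times the lowest. The order above Eif2b3 turned with the quantification and with the transcripts summed. In the second quantification Eif2b1 was the highest at 62.9 and 56.1 TPM, above Eif2b5 (38.6 and 40.1 TPM) and Eif2b2 (34.5 and 36.4 TPM). Over protein-coding transcripts Eif2b5 led at a mean of 29.0 TPM, and Eif2b4 (19.9 TPM) and Eif2b1 (18.1 TPM) were above Eif2b2 (15.7 TPM). Eif2b3 was the lowest in each of these. Among the kinases of eIF2 alpha, Eif2ak1 (HRI, the heme-regulated kinase) led at 21.6 and 20.3 TPM. Eif2ak4 (GCN2, a sensor of uncharged tRNA) was at 9.72 and 11.9 TPM, Eif2ak3 (PERK, of the endoplasmic reticulum) at 8.29 and 8.69 TPM, and Eif2ak2 (PKR, a sensor of double-stranded RNA) at 2.32 and 3.21 TPM. This order was the same in both libraries, and Eif2ak1 held 48.8% ± 3.82 of the kinases' summed level.

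The core subunits of the multisubunit factor eIF3 lay close together. By mean level the 12 core subunit genes lay between Eif3m (46.5 and 43.7 TPM) and Eif3c (91.0 and 90.8 TPM). Their median was 58.2 ± 0.018 TPM, and within a library the highest was 2.06 ± 0.026 times the lowest. Eif3c, Eif3h (82.6 and 89.0 TPM) and Eif3k (83.0 and 88.5 TPM) formed the upper end, where Eif3h and Eif3k overlapped. Eif3i (65.7 and 66.0 TPM), Eif3g (59.0 and 63.1 TPM), Eif3a (57.5 and 58.9 TPM), Eif3e (60.0 and 54.0 TPM), Eif3b (56.0 and 57.5 TPM), Eif3f (54.2 and 56.7 TPM) and Eif3d (53.8 and 54.0 TPM) made up the middle. Of the 6 neighbouring pairs in that order 3 overlapped, namely Eif3a with Eif3e, Eif3e with Eif3b and Eif3b with Eif3f. Eif3l (44.6 and 47.9 TPM) overlapped Eif3m at the low end and was the lowest in replicate 1.

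The loosely bound eIF3j subunit was lower and is encoded by 2 genes in the mouse. Eif3j1 was listed at 11.4 and 8.93 TPM and Eif3j2 at 13.8 and 15.5 TPM. Their leading coding sequences were identical at all 786 aligned bases, with 6 gap bases, and 83.99% of the Eif3j2 windows occur in Eif3j1. Both together had 1732 and 1504 expected counts, a sum that does not depend on how the reads shared by the pair were divided between them. Their summed level, 25.2 and 24.5 TPM, still depends on it where the transcripts differ in length.

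The cap-binding and helicase group held the highest initiation factor. Eif4g2 (ENSMUSG00000005610.17, chr7:111067750-111083030), known as DAP5, a relative of eIF4G that lacks the binding site for eIF4E, stood at 439 and 468 TPM. It held 63.5% ± 1.05 of the eIF4G family, above Eif4g1 (169 and 171 TPM) and Eif4g3 (92.4 and 89.3 TPM), the scaffolds of the cap-binding complex. Its level was 0.874 ± 0.00075 times that of Eef2, but 1.31 ± 0.094 times in the second quantification, so the order of Eif4g2 and Eef2 turned with the quantification. The lower library of Eif4g2 (439.4 TPM) and the upper library of Eef1a2 (438.7 TPM) nearly met.

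Eif4e, the cap-binding protein, was at 79.4 and 68.0 TPM and held 61.5% ± 3.29 of its family. Eif4e2 (4EHP, a cap-binding repressor) stood at 38.8 and 40.0 TPM and Eif4e3 at 6.04 and 6.71 TPM. Of the proteins that sequester eIF4E, Eif4ebp2, known as the main form in the brain, was the highest at 19.6 and 21.6 TPM and held 82.1% ± 3.89 of its family. Eif4ebp1 (2.40 and 1.64 TPM) and Eif4ebp3 (2.70 and 2.20 TPM) overlapped each other. Eif4enif1, the transporter that binds eIF4E, was at 28.3 and 28.7 TPM. The helicase cofactors Eif4h and Eif4b were at 144 and 149 TPM and at 82.1 and 85.1 TPM, and Eif4a3, the helicase of the exon junction complex, at 43.1 and 47.0 TPM.

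The eIF4A pair gave no stable order. Eif4a2 (ENSMUSG00000022884.15, chr16:23107444-23114136) was listed at 358 and 349 TPM and Eif4a1 (ENSMUSG00000059796.16, chr11:69666936-69672423) at 212 and 214 TPM, so that Eif4a2 held 62.4% ± 0.55 of the pair. When protein-coding transcripts alone were summed, Eif4a2 was behind, with 150.4 and 146 TPM against 181 and 179 TPM and a share of 45.1% ± 0.33. In the second quantification its share was 46.2% ± 3.85, and with protein-coding transcripts alone in the second quantification, a setting chosen after seeing the data, it was 56.3% ± 1.57. Eif4a2 thus led in the first and the last of these 4 settings and Eif4a1 in the other two.

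**Figure D2:**
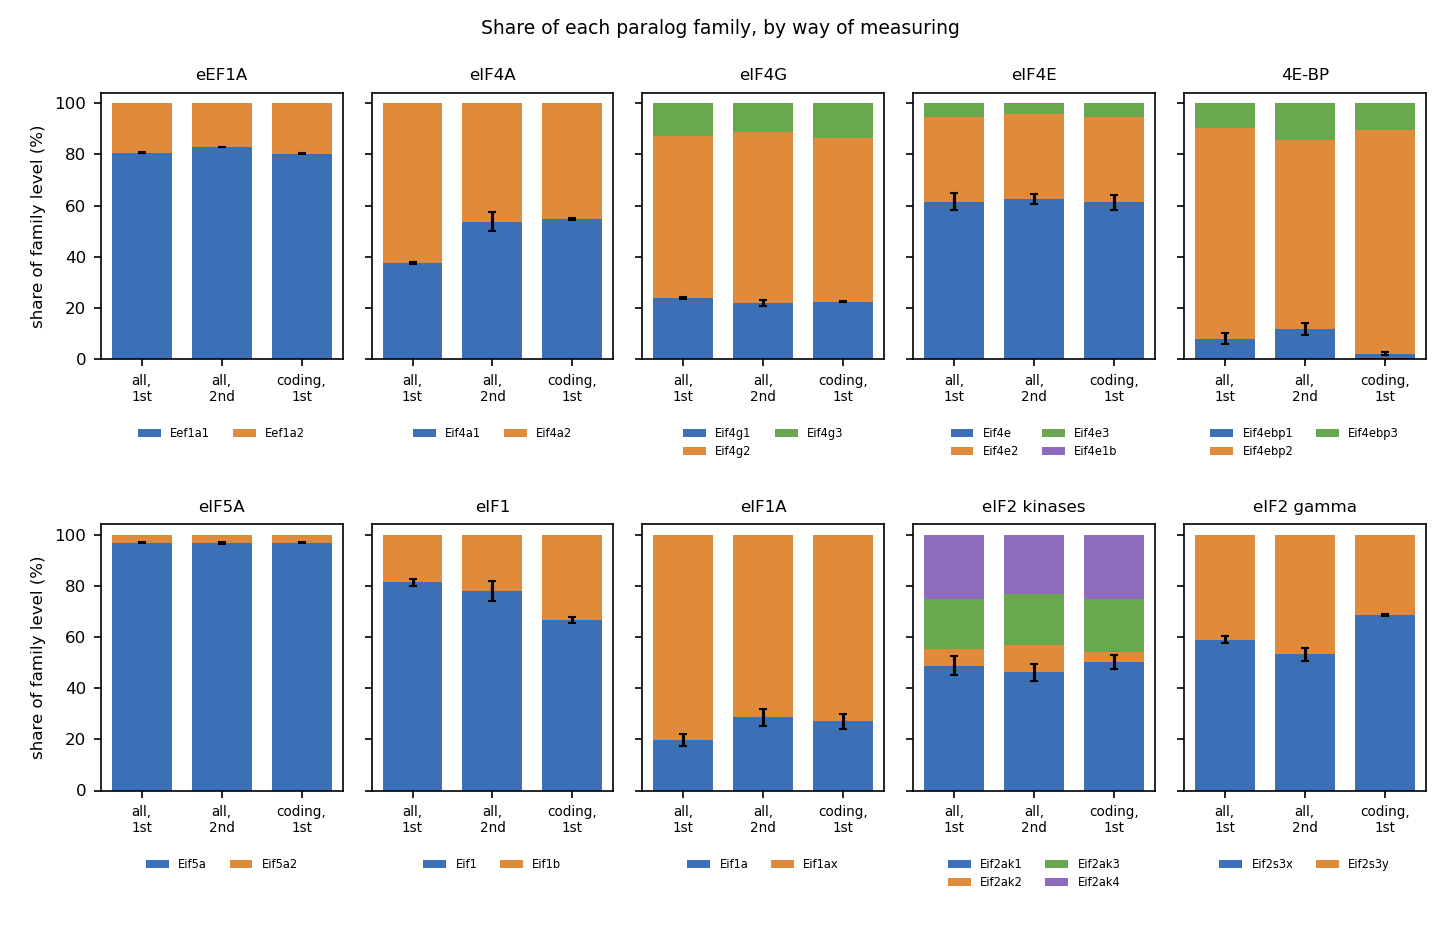
Share of each paralog family's level held by its members, as a mean of both libraries in percent, for TPM of all transcripts in the first quantification, of all transcripts in the second quantification, and of protein-coding transcripts in the first; the error bar is the SD (n = 2) of the lowest segment. The leading gene was the same in all 3 bars of 9 families, and in the eIF4A panel Eif4a2 held 62.4%, 46.2% and 45.1%.

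The split of the eIF4A pair went with the transcripts to which the reads were assigned. Of the Eif4a2 level, 58.1% ± 0.15 was assigned to transcripts not annotated as protein coding. The largest part, 38.4% ± 0.77 of the gene's level, lay in Eif4a2-210, a transcript of 1737 bases with a 97-codon reading frame that is annotated as a target of nonsense-mediated decay. This transcript had 4678 and 4257 expected counts. The second quantification assigned 4.08% ± 3.54 to it and 40.0% ± 10.4 to the protein-coding Eif4a2-201, which had 3.77% ± 0.75 in the first. For Eif4a1 the reverse was seen: 15.3% ± 1.16 was non-coding in the first quantification and 66.6% ± 1.32 in the second, where the retained-intron transcript Eif4a1-212 of 453 bases held 25.9% ± 1.30 against 2.06% ± 0.62. Summed by gene, Eif4a1 was at 710 ± 12.96 TPM in the second quantification, 3.33 times its first value, where the median member was 1.52 and 1.55 times its first value in replicates 1 and 2 and the median detected protein-coding gene 1.53 and 1.52 times.

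Small nucleolar RNAs lie inside several of these genes. The annotation places 28 records of small RNAs within 17 members, 12 of them of 99 bases or fewer. In the first quantification 4 had at least 20 expected counts in both libraries, and in the second none of the 28 had a count. Gm26447, inside Eif4a2 (chr16:23111301-23111429), was listed with 436 and 364 expected counts. Its bases lie in exons of the retained-intron transcripts Eif4a2-206 and Eif4a2-220, which held 1.03% and 0.66% of Eif4a2 in the first quantification and 11.1% and 5.28% in the second. Gm22988 and Gm25835, inside Eif4a1, had 407 and 352 and 54.0 and 68.0 expected counts, and Gm23262, inside Eif4g2, had 156 and 130. The share of the host genes' reads that came from these small RNAs was not tested.

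Over the 65 detected members, the median share of the level in transcripts not annotated as protein coding was 8.60% ± 0.79, against 10.4% ± 0.39 over all detected protein-coding genes. Counted by reads and not by TPM, the medians were 3.77% ± 0.17 and 4.01% ± 0.15. A short transcript with few reads weighs more in TPM, all the more because the deposited effective length of a transcript is its length less 99 bases. Of the 48 members at 20 TPM or more, 13 had at least 20% of their TPM in such transcripts, and 5 had at least 20% of their expected counts there: Eif4a2 (58.9% of counts), Eif2a (32.0%), Eef1b2 (31.7%), Eef1e1 (23.4%) and Eif1 (22.2%). In the second quantification 15 of the 48 had at least 20% of their TPM there. The median over detected members in that quantification was 7.98%, against 12.5% over all detected protein-coding genes. No counts past 20% over all protein-coding genes stand beside the 13, 5 and 15, so whether these are particular to the members was not tested.

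Single short transcripts made up much of this. In Eif1 the processed transcript Eif1-202 of 383 bases held 48.7% ± 2.31 of the TPM, and 29.9% ± 6.17 in the second quantification. In Eif2s1 the processed transcript Eif2s1-203 of 433 bases held 48.6% ± 4.21 with 93.5 and 106 expected counts, and 0.0069% in the second quantification. In Eif1ax the retained-intron transcript Eif1ax-202 of 416 bases held 33.4% ± 1.17, against 1.56% ± 1.21. These values show how far the gene levels of Eif1, Eif2s1 and Eif1ax rest on transcripts that are not annotated as coding: summed over protein-coding transcripts, Eif1 was at 160 TPM in place of 349 TPM, Eif2s1 at 15.3 TPM in place of 30.6 TPM and Eif1ax at 61.6 TPM in place of 92.5 TPM. Eef1b2, with 23.2% ± 1.47 in a decay-annotated transcript of 691 bases, had a non-coding share of 34.6% ± 2.70 in the first quantification and 58.6% ± 3.01 in the second.

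The remaining members of this kind were Eef1e1, Eif2b2, Eif2a, Eif5, Eif4a3, Eif6, Eif4enif1 and Eif2b1. Their non-coding shares lay between 21.2% ± 5.17 (Eif2b1) and 59.4% ± 0.11 (Eef1e1). In Eef1e1 the retained-intron transcript Eef1e1-203 of 533 bases was the leading transcript with 43.3% ± 0.014 of the TPM, but 84.4 and 78.6 expected counts against 446 and 417 for the protein-coding Eef1e1-201. In 3 of the others the largest non-coding transcript of the first quantification had no level in the second. The retained-intron transcript Eif2b2-206 of 338 bases held 26.7% ± 6.05 of Eif2b2 on 31.7 and 43.1 expected counts. The decay-annotated Eif2a-207 of 1945 bases held 25.5% ± 1.22 of Eif2a on 184 and 224, and the retained-intron Eif5-210 of 629 bases held 17.1% ± 3.22 of Eif5 on 200 and 243. In the other 4 it was seen in both quantifications. The processed transcript Eif4a3-203 of 466 bases held 21.1% ± 4.01 of Eif4a3 and 28.2% ± 3.56 in the second. For a processed transcript of Eif6 of 402 bases these shares were 23.6% ± 0.078 and 34.4% ± 2.85. Retained-intron transcripts, Eif4enif1-211 of 437 bases in Eif4enif1 and one of 600 bases in Eif2b1, held 14.3% ± 2.11 and 11.1% ± 2.21 in the first quantification, and 11.1% ± 0.063 and 22.6% ± 7.36 in the second.

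At the other end, members with under 0.1% in such transcripts in both quantifications included Eif5a, Eif1b, Eif3c, Eif2b5, Eef1a2, Eif4e2, Eif1a and Eif4ebp2. For Eif1b, Eif1a and Eef1a2 the annotation holds protein-coding transcripts only, which fixed their value in advance.

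**Figure D3:**
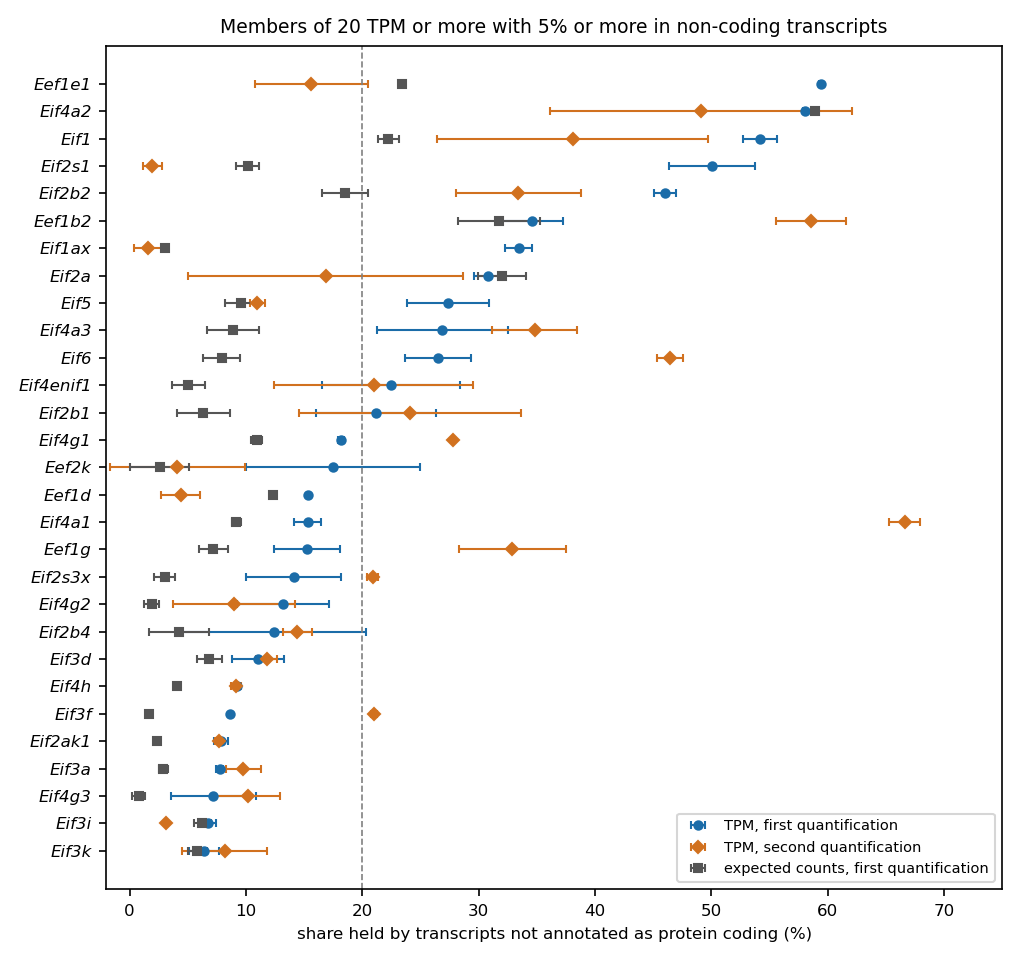
Percent of a member's level in transcripts not annotated as protein coding, for members with 20 TPM or more and a share of at least 5%, as mean and SD (n = 2) of TPM in the first quantification (circles), TPM in the second (diamonds) and expected counts in the first (squares), with a dashed line at 20%. For Eif4a2 circle and square coincide near 58%, for Eif2s1 and Eif1ax the circle lies far right of both other symbols, and for Eif4a1 the diamond lies far right at 66.6%.

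The leading transcript, the one with the largest mean share of its gene, was shared by both libraries in 63 of the 65 detected members (62 by the second quantification). Between the quantifications it was the same for 52. The 13 that differed were Eef1d, Eef1e1, Eef2k, Eef2kmt, Eif1, Eif1a, Eif2b1, Eif2b4, Eif4a2, Eif4e2, Eif4ebp1, Eif4h and Eif5a. In 4 members the leading transcript of the first quantification was not protein coding (Eef1e1, Eif1, Eif4a2 and Eif4ebp1), and in the second this held for 1, Eef2kmt. No such counts over all detected protein-coding genes stand beside these, so whether they are particular to the members was not tested. In Eif4h the forms that alternated were both protein coding: Eif4h-201, with 228 codons, held 65.5% ± 0.078 in the first quantification and 29.0% ± 3.06 in the second, and Eif4h-205, with 248 codons, held 25.2% ± 0.078 and 61.8% ± 2.61. In Eef1d the long form Eef1d-204, with 660 codons, held 37.8% ± 2.08 and 34.3% ± 3.42, and Eef1d-217, of 704 bases, held 2.76% ± 3.90 and 41.1% ± 4.51.

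In several of the others the transcript that led one quantification was absent or nearly so from the other. In Eif1a, Eif1a-202 held 47.7% ± 4.74 in the first quantification and none in the second, where Eif1a-208, with none in the first, held 58.2% ± 5.70. In Eif5a, Eif5a-210 led the first with 49.1% ± 2.86. In the second, Eif5a-202, with none in the first, had the largest mean share, 20.7% ± 12.9, beside 18.5% ± 25.7 for Eif5a-210. Eif5a-202 led neither library there: Eif5a-210 led replicate 1 and Eif5a-208 led replicate 2. In Eif2b1, Eif2b1-201 held 61.3% ± 10.5 and 31.6% ± 5.81, and Eif2b1-202 held 0.96% ± 1.36 and 43.7% ± 4.63. In Eif4ebp1 the processed transcript Eif4ebp1-202 held 73.2% ± 15.1 in the first and none in the second, where the protein-coding Eif4ebp1-201 held 100%.

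Elsewhere both forms were seen in both quantifications and the order changed. Eif2b4-202 held 33.5% ± 5.15 of Eif2b4 in the first quantification and 12.02% ± 0.98 in the second, and Eif2b4-212 held 13.9% ± 9.50 and 39.4% ± 2.94. Eef2kmt-201 held 41.2% ± 3.97 and 28.8% ± 2.07 of Eef2kmt, and the retained-intron Eef2kmt-203 held 12.9% ± 18.2 and 50.3% ± 6.402. In Eif4e2 and Eef2k the leaders of the second quantification were within their SD of the next. Eif4e2-204 held 32.1% ± 2.70 and 24.1% ± 1.94, and Eif4e2-208, of 570 bases, held 2.89% ± 4.08 and 24.7% ± 2.23. Eef2k-203 held 30.2% ± 4.32 and 31.4% ± 3.65, and Eef2k-204 held 20.8% ± 0.78 and 31.6% ± 3.30.

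The libraries were close for most members. Among the 61 members with a mean expected count of at least 100, the median log2 ratio of replicate 2 over replicate 1, with 0.1 TPM added to each value, was 0.04, as it was for all protein-coding genes under the same minimum. Past 1.2-fold were 5 of 61 members (8.20%), beside a background of 11.4% of all protein-coding genes. Eef1d (0.28), Eif2ak4 (0.29) and Eif2ak2 (0.45) were higher in replicate 2 on this log2 scale, and Eif3j1 (-0.35) and Eef1akmt2 (-0.50) were lower. By expected counts scaled to the library total (CPM), a scale added after seeing the data, 2 of 61 were past 1.2-fold (3.28%), beside a background of 5.9%. On both scales the share of members past 1.2-fold was below that of all protein-coding genes, which were not matched to the members in level. With 1 TPM added in place of 0.1 TPM, the shares by TPM were close, 8.20% beside 8.61%. In the second quantification the members' share was not below, with 9 of 61 members (14.8%) beside a background of 14.5%.

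The counts behind these 5 differed in size. Eif2ak2 had 142 and 148 expected counts, a CPM ratio of 1.08 (95% exact interval 0.850 to 1.37), and its protein-coding transcripts summed to 1.55 and 1.58 TPM, so the difference in TPM sat in its other transcripts. Eif2ak4 had 859 and 900 expected counts and a CPM ratio of 1.08 (0.986 to 1.19), and Eef1d had 1396 and 1516 and a ratio of 1.12 (1.04 to 1.21). Eif3j1 had 1088 and 807 expected counts and a ratio of 0.767 (0.700 to 0.841), while its near-identical copy Eif3j2 had 644 and 697. Eef1akmt2 had 301 and 232 and a ratio of 0.797 (0.669 to 0.949). By TPM of the second quantification, the log2 ratios of Eif3j1 (-0.154), Eef1akmt2 (-0.153) and Eif2ak4 (0.187) were within 1.2-fold. Those of Eef1d (0.295) and Eif2ak2 (0.598) were past it there too. The intervals (Clopper-Pearson) cover counting error only, because copies of a molecule made by PCR cannot be told from separate molecules here. For Eif3j1 the interval also leaves out how reads shared with Eif3j2 were divided. The pair together had 1732 and 1504 expected counts.

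**Figure D4:**
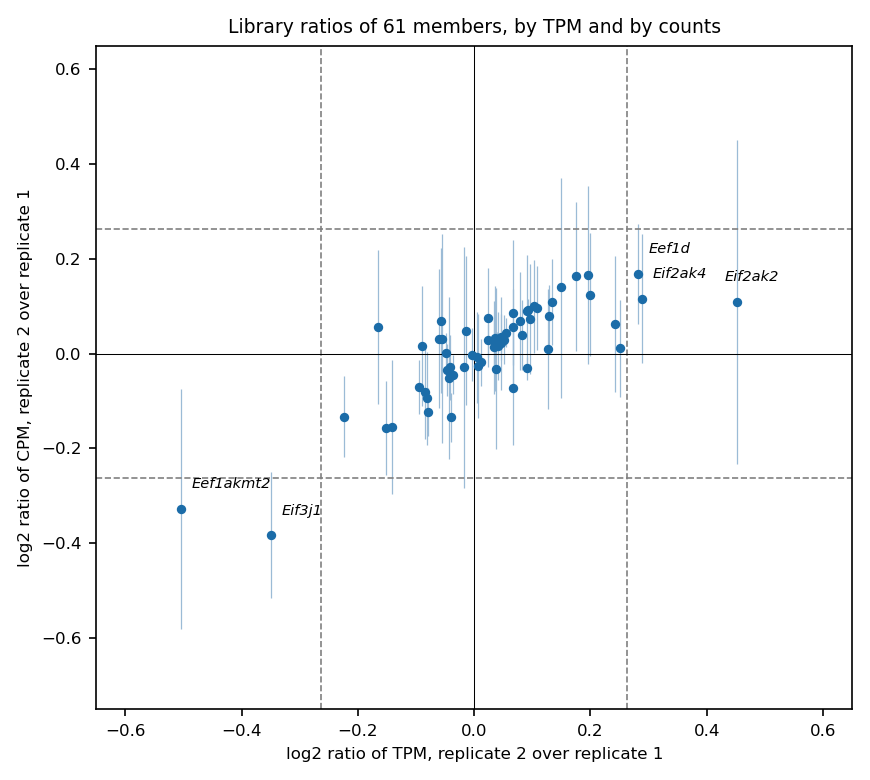
Log2 ratio of replicate 2 over replicate 1 for the 61 members with a mean expected count of at least 100, by TPM (horizontal) and by CPM with its 95% exact interval (vertical), with dashed lines at 1.2-fold. Both scales are those of the first quantification. Most points lie in the central square, Eif3j1 and Eef1akmt2 lie past 1.2-fold on both scales, and Eef1d, Eif2ak4 and Eif2ak2 lie past it by TPM alone.

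Other genes of translation and its control were measured from a list of 36, of which 35 matched a gene name. All 35 were detected, with a median of 33.4 ± 0.28 TPM, beside the members' 39.4 TPM. They ranged from Dph2 (4.73 and 4.66 TPM), an enzyme of the diphthamide modification on eEF2, to Pabpc1 (215 and 224 TPM), the poly(A)-binding protein that contacts eIF4G. Cyfip2, a partner of FMRP known in neurons, followed at 141.3 and 141.4 TPM. The enzymes that make hypusine on eIF5A, Dhps and Dohh, were at 33.7 and 36.7 TPM and at 38.9 and 37.4 TPM. Mtor, the kinase that controls the eIF4E-binding proteins, was at 43.7 and 43.8 TPM, and Atf4, the transcription factor translated when eIF2 alpha is phosphorylated, at 46.9 and 47.6 TPM. The eIF2 alpha phosphatase subunits Ppp1r15a and Ppp1r15b were at 11.9 and 14.8 TPM and at 20.4 and 20.3 TPM. The diphthamide genes Dph1, Dph2, Dph5 and Dph6 were the 4 lowest of the list, all under 10 TPM, far below Eef2 itself.

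Genes of the translation apparatus are known for mRNAs that begin with a C and a run of pyrimidines, the tract through which mTOR controls their translation. Among the leading coding transcripts of the 65 detected members, 3 (4.62%) begin in the annotation with C followed by at least 4 pyrimidines, against 2.33% of 13089 detected protein-coding genes. Their first 25 bases in GENCODE M21 are shown with the tract in capitals.
Eef1b2: CTTTTTTTCCCTCagcgctggccgc
Eif3f: CTCTTTCTCggcaagatggcttctc
Eif2s1: CTCTTggttgactaaaacttaaagc

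The match depends on where the annotation sets the first base, and these libraries do not measure start sites. The tract was longest in Eef1b2, with 13 bases, and the genes with it spanned 234 TPM (Eef1b2), 55.5 TPM (Eif3f) and 30.6 TPM (Eif2s1).

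Promoter windows of RefSeq on GRCm38.p6, from 250 bases before to 50 bases after a gene's start, were on hand for 51 of the 67 members and 27025 genes in all. The 7 bases CCGGAAG, the core to which ETS factors bind, occurred on either strand in 17 of the 51 (33.3%), in 9.93% of all genes and in 19.3% of the 10188 detected protein-coding genes. Also on either strand, TATAAA occurred in 4 (7.84%, against 15.7% of all genes) and TATATAA, which does not contain TATAAA, in 2 (Eef1a1 and Eif1, 3.92% against 3.84%). For TATAAA and TATATAA the shares stand beside those of all genes only, detected or not. In 6 members CCGGAAG begins within the first 20 bases from the annotated start, and 40 bases of each, from 10 before to 30 after the start, are shown with the motif in capitals (as CTTCCGG where it lies on the opposite strand). The windows are chr1:63176821-63176860 (Eef1b2, plus strand), chr1:87213901-87213940 (Eif4e2, plus), chr5:31193110-31193149 (Eif2b4, minus), chr5:143817782-143817821 (Eif2ak1, plus), chr11:3202985-3203024 (Eif4enif1, plus) and chr12:85219471-85219510 (Eif2b2, plus).
Eef1b2: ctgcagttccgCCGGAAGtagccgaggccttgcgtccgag
Eif4e2: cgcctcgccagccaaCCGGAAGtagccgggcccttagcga
Eif2b4: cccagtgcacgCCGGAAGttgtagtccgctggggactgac
Eif2ak1: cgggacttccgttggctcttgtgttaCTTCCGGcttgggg
Eif4enif1: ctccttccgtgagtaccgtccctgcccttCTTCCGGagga
Eif2b2: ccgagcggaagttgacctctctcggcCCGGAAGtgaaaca

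The 6 genes stood between Eif2ak1 (21.6 and 20.3 TPM) and Eef1b2 (227 and 241 TPM), and those with the motif elsewhere in the window included Eif3c, Eif3d, Eif3g, Eif3l and Eif3m of eIF3. A match of these letters is a description and does not show binding.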

How the data were processed

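Total RNA-seq of 2 libraries of 1 group was used. Per the descriptions deposited with the files, the first quantification came from alignments to the transcriptome and the second from the reads with an index, both on mm10 with GENCODE M21. Programs, versions and strandedness: not given in the sources used here. Per the file headers, the authors deposited expected or estimated counts, TPM and, per transcript, the percent of its gene's TPM. The second quantification was summed by gene. Alleles of the parent strains were not separated.

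Members and gene lists were chosen with earlier results of these data known. Every member was placed in a role; per-library values are given for paralog families, complex subunits, the 10 highest members, those below 1 TPM and those past 1.2-fold between libraries, and transcripts for members of 20 TPM or more with at least 20% non-coding level or with differing leading transcripts. Per-library values of other members, of the other translation genes and of small RNAs inside members were chosen after their values were seen. Shared windows of 100 bases were searched on the given strand of the GENCODE transcripts; coding sequences were aligned with Biopython 1.88. Non-coding means any annotated type other than protein coding. Python 3.11.15, pandas 2.3.3, SciPy 1.17.1 and R 4.3.3 were used; edgeR 4.0.16 and DESeq2 1.42.0 gave scaling factors of rounded counts only, tested on simulated data. The alternatives were both quantifications, posterior mean TPM, other scalings, minimum counts, pseudocounts, and leaving out a library.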

Additional observations from a re-analysis of the deposited data

How the results depend on the processing

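With 1 group of 2 libraries the SD is itself poorly known, and leaving out a library leaves a single value. No paired analysis was possible because there is 1 group and nothing to pair. Of the values and counts that bear on the main results, recomputed under the alternatives, 44 stayed within the spread (or within 1.5-fold for counts), 20 moved and 1 reversed. Of those for single paralog families and for eIF2, 51 stayed, 14 moved and 2 reversed. In both tallies some stayed by construction and say nothing of stability. With a library left out, a level, share or ratio always lies within the SD of the mean. Rescaling a library changes no share or ratio within it. The median log2 ratio between libraries was judged against the SD over the 61 members, not against the spread between libraries. By the 1.5-fold limit, 52 of 65 unchanged leading transcripts and 9 of 10 unchanged family leaders also counted as stayed. That tally therefore holds changed leaders, the eIF4A leader among them. The median member level was 67.2 TPM in the second quantification, 81.3 TPM when rescaled to nuclear protein-coding genes and 33.2 TPM over protein-coding transcripts. In the same order of second quantification and protein-coding transcripts, the Eef1a1 to Eef1a2 ratio was 4.87 and 4.06, the highest to lowest core subunit of eIF3 2.41 and 2.13 (2.03 with posterior mean TPM) and of eIF2B 3.19 and 2.93, and the share of Eif4a2 in its pair reversed to 46.2% and 45.1%. Members past the fold between libraries numbered, with the share of all protein-coding genes in brackets, 15 at 1.1-fold (33.2%), 0 at 1.5-fold (1.11%), 8 at a mean count of 10 or more (19.5%), 9 with no minimum (22.7%), 9 in the second quantification (14.5%), and 2 with TMM (5.35%), DESeq2 (5.29%), spike-in (6.82%) or CPM scaling (5.9%). Their median log2 ratio reversed to -0.0125 with DESeq2 scaling, where that of all protein-coding genes was -0.02. With CPM scaling the medians were 0.0278 and 0.0223. Such a factor shifts the log2 ratios of all genes by nearly the same amount, so the members moved with the rest. The non-coding share was 3.77% by counts. Without replicate 1 or 2 the median level was 38.8 to 40.0 TPM and the Eef1a1 to Eef1a2 ratio 4.15 to 4.20.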
